A study of Homo sapiens with 12 samples.

Results

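The genes described here build the route of secretory and membrane proteins into the endoplasmic reticulum (ER) and fold them there. They were chosen by name: 55 genes of signal recognition, the translocon, signal peptidase, oligosaccharyltransferase, lumenal chaperones, disulfide formation and ER-associated degradation. Of these, 53 were listed in all libraries and were tested among 6777 genes. The cochaperone gene DNAJB9 and the mannosidase-like gene EDEM1 were not listed. SRP54 and TMEM147 were included as cases of differing footprints in these data. The cells were MDA-MB-231, a long-established line of human triple-negative breast cancer. They had 4 h with 10 nM AZD0095, an inhibitor of MCT4 (the lactate exporter that SLC16A3 encodes), or with the solvent DMSO. RNA-seq measured transcripts and ribosome profiling measured the mRNA fragments that ribosomes protect (footprints), each in 3 AZD0095 and 3 DMSO libraries, 12 libraries in all. The series asks how lactate held inside the cells affects transcription and translation. Whether replicates were grown as separate cultures is not in the labels, so each p-value reflects library-to-library spread that could be technical.

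Proteins bound for secretion or for membranes are recognised while they are still being made. The signal recognition particle (SRP) binds the signal sequence as it leaves the ribosome and brings the ribosome to its receptor on the ER, where the chain threads through the Sec61 channel. Signal peptidase then removes the signal, oligosaccharyltransferase adds sugars, chaperones and disulfide isomerases fold the chain, and chains that fail are drawn back to the cytosol and degraded. Secretory cells raise many of these genes together in the unfolded protein response. It works through the transcription factors ATF6 and XBP1, which act on ER stress response elements in promoters.

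The cells carried RNA of the mesenchymal markers VIM (2492 to 2799 FPKM over the 6 RNA libraries) and AXL (358 to 440.1 FPKM) and of the basal-type markers CD44 and EGFR. The hormone receptor genes ESR1 and PGR, the luminal factor gene GATA3 and the epithelial cadherin gene CDH1 were not listed. The receptor gene ERBB2 and the epithelial gene EPCAM had been expected to be low or not listed. They were listed, at 15.4 to 21.4 FPKM and 9.33 to 12.5 FPKM. The median over all listed genes was 23.3 FPKM in DMSO cells. Markers of leukocytes (PTPRC), endothelium (PECAM1) and fibroblasts (COL1A1) were not listed. FPKM counts fragments scaled to the length taken for the gene and to the fragments mapped in the library. Within a group, correlations over all genes were 0.989 to 0.997 between RNA libraries and 0.854 to 0.920 between footprint libraries. The footprint libraries were shallow: their values implied 141122, 217366 and 501351 reads with AZD0095, against 123859, 107087 and 192324 reads with DMSO. The RNA depth is unknown. Both RNA libraries numbered 1 stood apart from their groups, and their deviations from the group means went together over all genes (r = 0.622). RNA results are therefore also given without them.

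No member was called after AZD0095 in RNA, in footprints or in the footprint-to-RNA ratio. A gene was called at a limma adjusted p under 0.05, over all 6777 genes. In RNA 0 of 53 members passed, against 8.04% of all genes tested (5.03% higher, 3.01% lower). In footprints and in the ratio 0 of 53 members passed, against 0% of all genes in each. At an unadjusted p under 0.05 there were 4 members in RNA, against 24.2% of all genes: 1 higher (14.1%) and 3 lower (10%). In footprints there were 6, against 7.82%: 3 higher (4.1%) and 3 lower (3.72%). In the ratio there were 6, against 8.53%: 3 higher (4.68%) and 3 lower (3.85%). Both counts of 6 include SRP54 and TMEM147. These were picked for differing footprints, so the counts are no independent support. In bulk cultures fewer cells with a transcript and less of that transcript per cell cannot be told apart.

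The RNA of the route stayed within a narrow band. The log2 fold changes, on the log2(FPKM + 1) scale and with AZD0095 over DMSO, ran from -0.24 (SEC62) to 0.18 (TMEM147). Errors given after ± are SEs for log2 fold changes and SDs for levels. The median RNA log2 fold change of the members was 0.001, against 0.009 over all genes, with 27 members positive and 26 negative. The 95% interval lay within 0.5 log2 units of no difference for 52 of 53 members, and the outermost bounds of any interval were -0.54 and 0.46. Footprints left far wider limits: their intervals lay within 1 log2 unit for 28 of 53 members, with outermost bounds of -1.89 and 3.22. The plot of changes by role shows both.

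**Figure D1:**
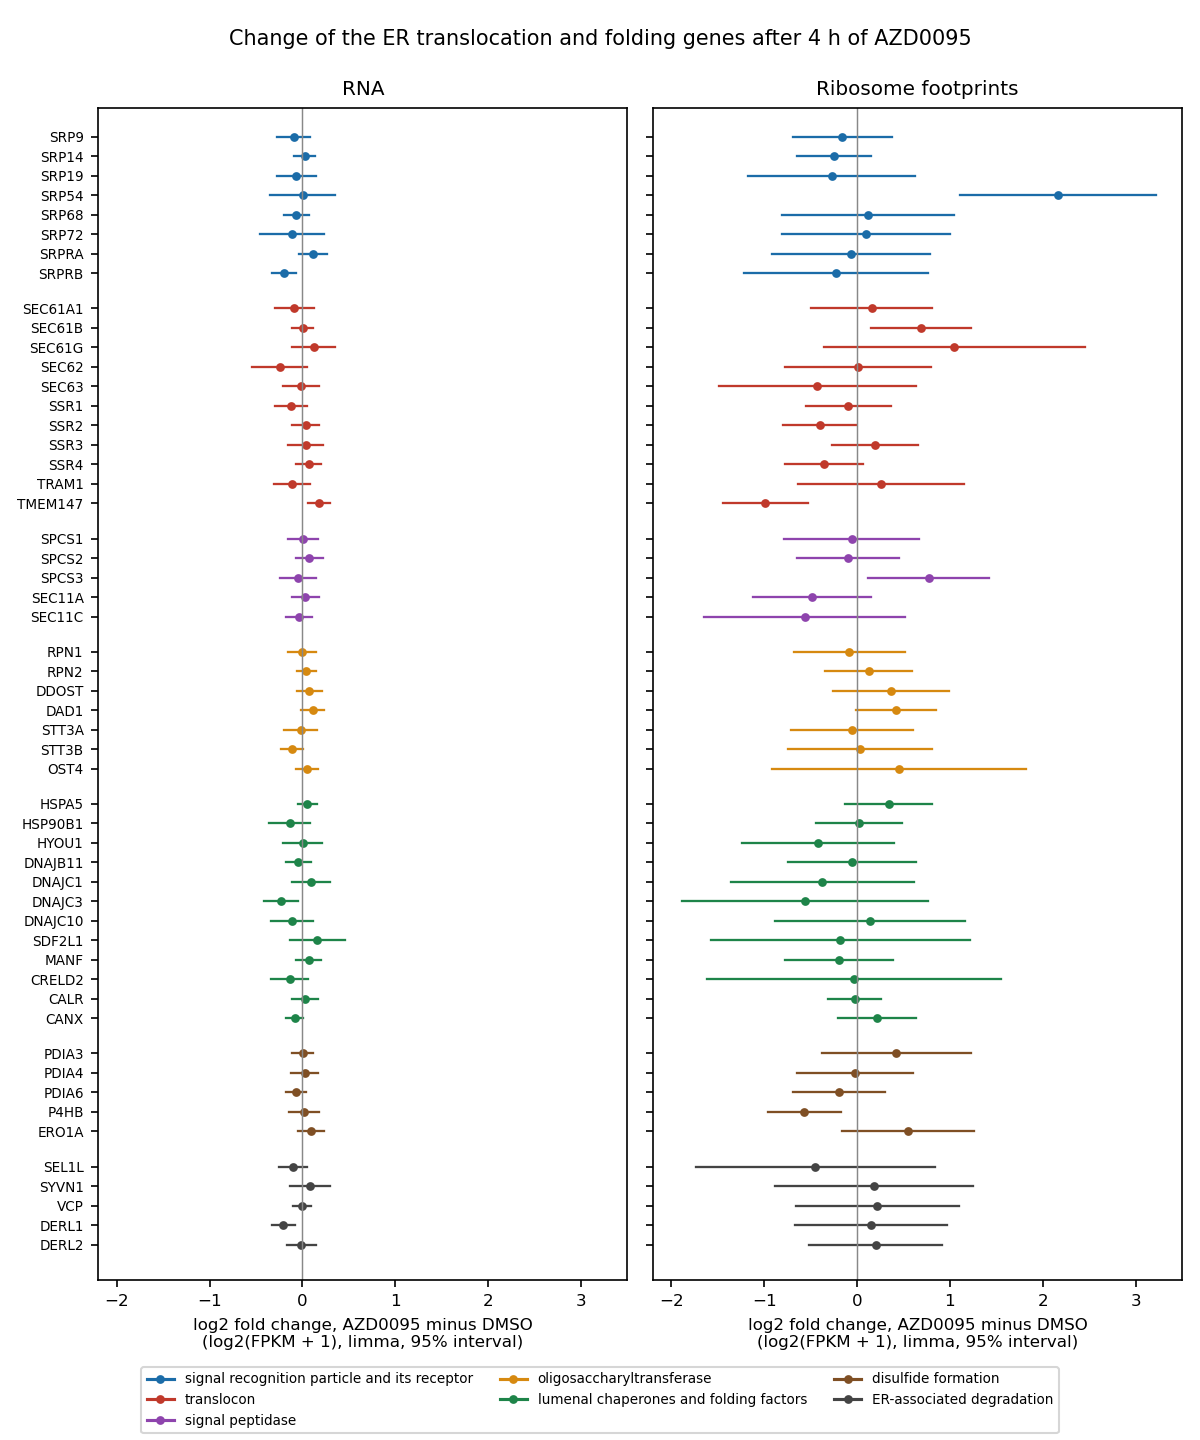
Log2 fold change of each of the 53 listed genes, AZD0095 minus DMSO, with its 95% interval from limma, in RNA (left) and ribosome footprints (right), grouped and coloured by role. RNA intervals stay within -0.54 to 0.46, while footprint intervals reach from -1.89 to 3.22, and SRP54 and TMEM147 stand farthest from 0 relative to their intervals.

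Together the members held about the same part of each library. Their summed RNA FPKM was 1.67%, 1.61% and 1.63% of all listed FPKM in the AZD0095 libraries, against 1.65%, 1.64% and 1.69% in the DMSO libraries. Their footprints made up 1.70%, 1.94% and 1.99% with AZD0095, against 1.92%, 1.91% and 1.69% with DMSO. The groups overlapped in both assays. By role, the footprint share of oligosaccharyltransferase genes was 0.232%, 0.290% and 0.261% with AZD0095, against 0.228%, 0.224% and 0.192% with DMSO. These did not overlap. Among these genes DAD1 had the largest mean rise in footprints, from 934 FPKM with DMSO to 1267 FPKM with AZD0095. RPN1 and STT3A were lower with AZD0095. The groups of the other roles overlapped in footprints. In RNA the share of ER-associated degradation genes was 0.0754%, 0.0742% and 0.0767% with AZD0095, against 0.0779%, 0.0779% and 0.0800% with DMSO, without overlap. Among these genes DERL1 had the largest mean fall in RNA, from 71.43 FPKM with DMSO to 61.75 FPKM with AZD0095, and SYVN1 was higher. The groups of the other roles overlapped in RNA. How often such sums separate without an effect was not tested. The percentages are shares, so an equal change of every gene would not show in them.

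Without the libraries numbered 1 some RNA calls appeared. With replicates 2 and 3 alone, 5 of 53 members were called, 1 higher and 4 lower, where 20.6% of all genes were called. They were the translocon subunit TMEM147 (0.20 ± 0.06 SE, limma adjusted p = 0.024), the translocation factor SEC62 (-0.30, adjusted p = 0.018), the chaperone HSP90B1 (-0.24, adjusted p = 0.0023), the cochaperone DNAJC3 (-0.30, adjusted p = 0.028) and the degradation factor DERL1 (-0.20, adjusted p = 0.028). With replicate 1 as a batch term 5 members were called as well, with SRPRB in place of HSP90B1, at a background of 24.5%. Leaving out AZD0095 replicate 1 alone gave 4 called members, all but DERL1 of those named for replicates 2 and 3, at a background of 16.4%.

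Signal recognition begins with SRP, a particle of RNA and protein, whose subunit SRP54 binds the signal sequence and GTP and docks on the receptor. SRP54 footprints stood at 90.8, 104 and 86.5 FPKM in the AZD0095 libraries, against 11.9, 26.9 and 24.9 FPKM in the DMSO libraries. Every AZD0095 library lay above every DMSO library, with a gap larger than the range within either group. Its RNA was at 45.1, 32.9 and 30.2 FPKM with AZD0095, against 41.0, 34.7 and 31.3 FPKM with DMSO, and these groups overlapped, each with its highest value in replicate 1.

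The log2 fold change of SRP54 was 2.17 ± 0.49 in footprints (SE, limma adjusted p = 0.49) and 0.00 ± 0.15 in RNA (adjusted p = 1.0). In the footprint-to-RNA ratio it was 2.16 ± 0.43 (limma adjusted p = 0.23). By its p it had rank 10 of 6777 genes in footprints and rank 6 in the ratio, and in neither did it pass the adjustment. SRP54 was picked for its differing footprints, so these p-values and ranks are no independent support. Over the alternatives tried its footprint log2 fold change stayed between 1.81 and 2.37, with an adjusted p of 0.41 to 0.91. The footprint reads behind it were few: an implied 12.8, 22.6 and 43.3 reads per kilobase with AZD0095, against 1.48, 2.88 and 4.79 with DMSO. Kilobases are of the length behind the FPKM values, not of the gene span. The SRP54 gene lies on chromosome 14 from 34982992 to 35029567 (GRCh38.p14), and no other RefSeq gene overlaps it.

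The other SRP and receptor proteins had footprint log2 fold changes between -0.27 and 0.12. SRP9 and SRP14, which bind the Alu end of the SRP RNA and slow elongation, were at -0.16 and -0.25 on that scale. SRP14 footprints lay lower in every AZD0095 library, at 693, 721 and 712 FPKM, against 844, 807 and 876 FPKM in DMSO, and were not called (limma adjusted p = 0.79). The log2 fold change of the assembly protein SRP19 was -0.27, and SRP68 and SRP72, which form the larger protein pair of the particle, were at 0.12 and 0.10. For the receptor subunits SRPRA and SRPRB, a GTPase pair that receives SRP at the membrane, it was -0.06 and -0.23.

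SRPRB had the smallest RNA p of this group. Its RNA was at 36.8, 38.1 and 39.4 FPKM with AZD0095, against 43.7, 42.8 and 45.0 FPKM with DMSO. The groups did not overlap, and the log2 fold change was -0.20 ± 0.06 (SE, limma adjusted p = 0.074). Of the 53 members, 8 had RNA groups that did not overlap, 2 higher (TMEM147, HSPA5) and 6 lower (SRPRB, STT3B, DNAJC3, CANX, SEL1L, DERL1). Of all genes 29.2% did so, 17.7% higher and 11.5% lower.

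The translocon is the Sec61 channel with its partners. TMEM147 is a membrane protein that joins the channel while multispanning proteins are made. Its footprints were at 458.5, 477 and 390.3 FPKM in the AZD0095 libraries, against 952, 942 and 747 FPKM in the DMSO libraries. All AZD0095 libraries lay below all DMSO libraries. TMEM147 RNA was on the other side, at 65.5, 69.0 and 68.7 FPKM with AZD0095, against 59.7, 59.6 and 59.9 FPKM with DMSO, and here all AZD0095 libraries lay above.

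The footprint log2 fold change of TMEM147 was -0.99 ± 0.21 (SE, limma adjusted p = 0.49), with rank 6 of all genes by p, and its RNA log2 fold change was 0.18 ± 0.05 (adjusted p = 0.068). In the footprint-to-RNA ratio it was at -1.17 ± 0.20 (limma adjusted p = 0.20). Its p was the smallest of all 6777 genes in the ratio, and it did not pass the adjustment. TMEM147 too was picked for its differing footprints, so its p-values and ranks are no independent support. Over the alternatives tried the footprint value stayed between -1.10 and -0.90. Unlike SRP54, TMEM147 was well covered: the implied reads per kilobase were 64.7, 104 and 196 with AZD0095, against 118, 101 and 144 with DMSO. The gene lies on chromosome 19 from 35545626 to 35547526 (GRCh38.p14) and overlaps the antisense gene TMEM147-AS1. Whether counting used the strand is not given in the sources used here. Reads of this pair therefore cannot be told apart.

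**Figure D2:**
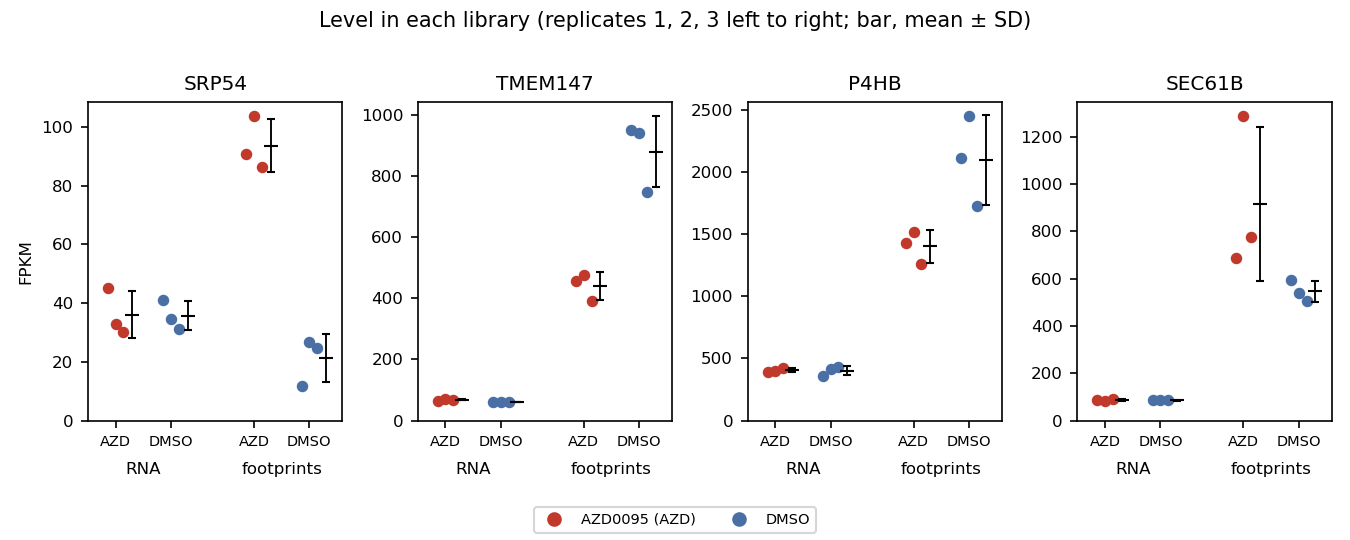
FPKM of SRP54, TMEM147, P4HB and SEC61B in every library, RNA on the left and footprints on the right of each panel, AZD0095 in red and DMSO in blue, with mean and SD of the 3 libraries. Footprints of SRP54 and SEC61B lie higher, and those of TMEM147 and P4HB lower, in all 3 AZD0095 libraries, while RNA levels of SRP54, P4HB and SEC61B overlap; none of the 4 genes was called.

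The channel itself is built of the Sec61 subunits. Footprints of SEC61B, the small beta subunit, were at 686, 1286 and 776 FPKM with AZD0095, against 594, 540.2 and 506 FPKM with DMSO. All AZD0095 libraries lay above the DMSO libraries, with AZD0095 replicate 2 far above the others, and the log2 fold change was 0.69 ± 0.25 (SE, limma adjusted p = 0.63). The footprint log2 fold change was 0.16 for the pore subunit SEC61A1 and 1.05 ± 0.65 for the gamma subunit SEC61G. The value of SEC61G rested on very few reads, since its footprints came to 13, 14 and 46 whole reads with AZD0095, against 11, 1 and 14 with DMSO. SEC62 and SEC63, which serve chains that enter after synthesis, had footprint log2 fold changes of 0.01 and -0.43, and TRAM1, which helps chains into the membrane, had 0.26.

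The translocon-associated protein complex, SSR1 to SSR4, sits beside the channel and aids weak signal sequences. SSR2 footprints were at 870.0, 1019 and 885 FPKM with AZD0095, against 1165, 1347 and 1155 FPKM with DMSO. The groups did not overlap, and the log2 fold change was -0.40 ± 0.18 (SE, limma adjusted p = 0.63). SSR4, with a footprint log2 fold change of -0.36, had overlapping groups, and SSR1 and SSR3 had -0.09 and 0.19.

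Signal peptidase cuts the signal off in the lumen. SPCS3, an accessory subunit, was at 273, 330 and 391 FPKM in AZD0095 footprints, against 268, 180 and 145 FPKM in DMSO footprints. The groups met closely, since the lowest AZD0095 library and the highest DMSO library nearly touched, and the log2 fold change was 0.77 ± 0.30 (SE, limma adjusted p = 0.63). In whole reads these were 22, 41 and 112 with AZD0095, against 19, 11 and 16 with DMSO. The footprint log2 fold changes of the catalytic subunits SEC11A and SEC11C were -0.49 and -0.56, and those of SPCS1 and SPCS2, further accessory subunits, were -0.06 and -0.10. SPCS2 had the smallest RNA p of the group, with a log2 fold change of 0.07 (limma adjusted p = 0.54).

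Oligosaccharyltransferase attaches glycans to asparagine, with STT3A acting during translocation and STT3B on sites that were skipped. STT3B RNA lay at 109, 108 and 99.9 FPKM with AZD0095, against 116, 111 and 115 FPKM with DMSO. These did not overlap, with a log2 fold change of -0.11 with SE 0.05 (limma adjusted p = 0.25). DAD1, a small subunit named for its defence against cell death, had footprints of 1328, 1488 and 984 FPKM with AZD0095, against 892, 979 and 933 FPKM with DMSO. The groups were just apart, and the log2 fold change was 0.42 ± 0.20 (limma adjusted p = 0.65). The footprint log2 fold changes of RPN1, RPN2, DDOST and STT3A ran from -0.08 to 0.37, and that of OST4, a very small subunit, was 0.45 ± 0.63, on 3, 8 and 13 whole reads with AZD0095, against 5, 4 and 1 with DMSO.

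Chaperones of the lumen hold the best known targets of the unfolded protein response. HSPA5, or BiP, binds unfolded chains and keeps the stress sensors silent. HSPA5 RNA was at 412, 410 and 414 FPKM with AZD0095, against 384, 409 and 400 FPKM with DMSO, a log2 fold change of 0.05 with SE 0.04 (limma adjusted p = 0.52). The groups were apart by less than the range of the DMSO libraries. In footprints HSPA5 was at 530, 623 and 683 FPKM with AZD0095, against 525, 492 and 429 FPKM with DMSO (log2 fold change 0.34 ± 0.21 SE, limma adjusted p = 0.74), again apart by a small gap.

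The remaining chaperones and folding factors gave no called change. The log2 fold change of the HSP90-family chaperone HSP90B1 was -0.14 in RNA and 0.02 in footprints. For the lectin chaperones CALR and CANX, which hold glycoproteins, it was 0.03 and -0.08 in RNA and -0.02 and 0.21 in footprints. DNAJC3, an ER cochaperone of HSPA5, had the smallest RNA p of the group, at 11.2, 10.3 and 9.65 FPKM with AZD0095, against 12.1, 12.5 and 12.5 FPKM with DMSO. Its log2 fold change was -0.23 ± 0.08 (SE, limma adjusted p = 0.12), and its groups did not overlap. The nucleotide exchange factor HYOU1, the J proteins DNAJB11, DNAJC1 and DNAJC10, and the stress-induced factors SDF2L1, MANF and CRELD2 had log2 fold changes between -0.14 and 0.16 in RNA and between -0.42 and 0.14 in footprints.

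Since the unfolded protein response acts through ER stress response elements, the promoters of the members were searched for them. The RefSeq promoter table (GRCh38.p14) holds 250 bases before and 50 bases after each start, in 35116 windows of 27305 genes, and 45 of the 53 listed members have an entry. The element ERSE, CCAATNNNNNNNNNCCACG, occurred on either strand in 0.0769% of all windows. By gene, it occurred in 6 of the 45 members, against 0.194% of the 5656 listed genes with an entry (11 genes, the members included). ERSE-II, ATTGGNCCACG, occurred in 0.0541% of windows, and by gene in 2 of the 45 members, against 0.212% of those listed genes (12 genes). No member held both, and all 8 members with a match are chaperones or folding enzymes. The members were chosen by name and include known targets of the unfolded protein response. Their shares are a description and no test of enrichment. The matches lie on the strand of the gene in HSPA5, CANX, PDIA6, the first of HSP90B1, XBP1 and HERPUD1, and on the other strand in the rest. The search fixed the ends of every match, and only the middle bases were free. Near-matches were not searched, so a promoter without an exact match may still hold such an element. Each is given 5′ to 3′ in the direction of the motif, with its GRCh38.p14 position and its fixed letters in capitals. Those of XBP1 and HERPUD1, genes of the unfolded protein response list that rose in RNA, come last.
HSPA5 (chr9:125241391-125241409): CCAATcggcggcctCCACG
HSP90B1 (chr12:103930216-103930234): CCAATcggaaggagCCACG
HSP90B1 (chr12:103930321-103930339): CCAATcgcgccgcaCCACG
CALR (chr19:12938384-12938402): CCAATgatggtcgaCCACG
CANX (chr5:179698778-179698796): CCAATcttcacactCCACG
CRELD2 (chr22:49918554-49918572): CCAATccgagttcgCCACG
PDIA6 (chr2:10812853-10812871): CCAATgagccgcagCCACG
HYOU1 (chr11:119057274-119057284): ATTGGaCCACG
HYOU1 (chr11:119057380-119057390): ATTGGaCCACG
SDF2L1 (chr22:21642114-21642124): ATTGGtCCACG
XBP1 (chr22:28800603-28800621): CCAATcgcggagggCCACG
HERPUD1 (chr16:56932025-56932035): ATTGGgCCACG

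The HSPA5 window is given whole as the textbook case, at chr9:125241294-125241593 on the minus strand. It reads 5′ to 3′ along the gene, with the fixed letters of its exact ERSE match in capitals. The match runs from 66 to 48 bases upstream of the start.
HSPA5 promoter: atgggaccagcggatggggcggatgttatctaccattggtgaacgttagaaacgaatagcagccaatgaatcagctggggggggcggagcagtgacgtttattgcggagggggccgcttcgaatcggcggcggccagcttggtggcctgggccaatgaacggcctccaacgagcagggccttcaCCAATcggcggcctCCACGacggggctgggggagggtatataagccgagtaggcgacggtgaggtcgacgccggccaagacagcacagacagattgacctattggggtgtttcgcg

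RNA of the members with such an element was not called in the fit of all libraries. HSP90B1 was called at -0.24 with replicates 2 and 3 alone (limma adjusted p = 0.0023) and at -0.27 without AZD0095 replicate 1 (limma adjusted p = 0.0099). With library weights HSP90B1, SDF2L1 and PDIA6 were called, where 45.5% of all genes were. With all libraries the log2 fold changes of the 8 members ran from -0.14 (HSP90B1) to 0.16 (SDF2L1), with a median of -0.03, 4 positive and 4 negative, against a median of 0.001 for the 37 members with a promoter entry and neither motif. RNA of XBP1, which encodes a transcription factor that acts on these elements, averaged 84.2 FPKM with AZD0095 and 47.7 FPKM with DMSO. It rose by 0.81 ± 0.05 (SE, limma adjusted p = 0.00016). FPKM per gene do not tell mRNA forms of XBP1 apart, and its protein was not measured. HERPUD1, a scaffold of ER-associated degradation, averaged 44.9 FPKM with AZD0095 and 33.3 FPKM with DMSO. Its RNA rose by 0.42 ± 0.07 (limma adjusted p = 0.010). In footprints neither was called, with XBP1 at 0.72 (limma adjusted p = 0.71) and HERPUD1 on the other side, at -0.38 (limma adjusted p = 0.88). The 95% intervals of the 8 members all ended at or below 0.46, and those of XBP1 and HERPUD1 began at 0.68 and 0.27. A motif match is a description of the sequence and not of binding.

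**Figure D3:**
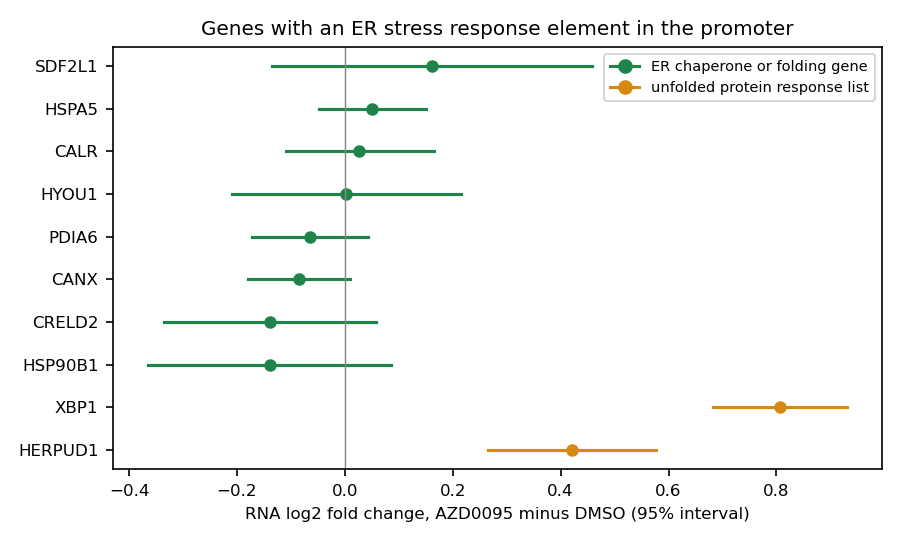
RNA log2 fold change, AZD0095 minus DMSO, with its 95% interval, for the listed genes of this set and of the unfolded protein response list whose RefSeq promoter holds ERSE or ERSE-II. The 8 chaperone and folding genes lie between -0.14 and 0.16, and XBP1 and HERPUD1 lie at 0.81 and 0.42.

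Disulfide formation joins cysteines in the lumen. P4HB, or protein disulfide isomerase, had footprints of 1427, 1523 and 1263 FPKM with AZD0095, against 2112, 2453 and 1728 FPKM with DMSO. The groups did not overlap, with a log2 fold change of -0.57 with SE 0.18 (limma adjusted p = 0.63), rank 76 by p. P4HB RNA was at 392.2, 399.5 and 426 FPKM with AZD0095, against 363, 412 and 432 FPKM with DMSO, and overlapped. P4HB was deeply covered, at an implied 201 to 633 reads per kilobase with AZD0095 and 262 to 332 with DMSO.

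ERO1A, the oxidase that recharges the isomerases, had the smallest RNA p of this group. Its RNA was at 63.5, 59.1 and 56.6 FPKM with AZD0095, against 55.8, 54.1 and 58.3 FPKM with DMSO, and overlapped (log2 fold change 0.09, limma adjusted p = 0.43). In footprints its log2 fold change was 0.55 ± 0.33 (SE, limma adjusted p = 0.72). The isomerases PDIA3, PDIA4 and PDIA6 had log2 fold changes of 0.42, -0.02 and -0.20 in footprints and between -0.06 and 0.03 in RNA.

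ER-associated degradation returns misfolded chains to the proteasome. DERL1, a membrane protein of the exit channel, had the smallest adjusted RNA p of all members. Its RNA was at 59.5, 61.2 and 64.5 FPKM with AZD0095, against 69.9, 71.5 and 73.0 FPKM with DMSO. The groups did not overlap, and the log2 fold change was -0.21 ± 0.05 (SE, limma adjusted p = 0.053). The RNA log2 fold change of its paralog DERL2 was -0.01, with the ubiquitin ligase SYVN1 at 0.08, its partner SEL1L at -0.10 and the ATPase VCP, which pulls chains out, at 0.00. In footprints the log2 fold changes of the 5 genes ran from -0.45 (SEL1L, limma adjusted p = 0.90) to 0.22 (VCP), with wide intervals.

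In footprints 9 of 53 members had groups that did not overlap, 5 higher (SRP54, SEC61B, SPCS3, DAD1, HSPA5) and 4 lower (SRP14, SSR2, TMEM147, P4HB). Of all genes 13% did so, 7.19% higher and 5.77% lower. They came from every role except ER-associated degradation. SRP54 and TMEM147 among them were picked for differing footprints, so the count is no independent support. Within SRP, SRP14 lay on the other side from the picked SRP54. In the translocon SEC61B lay higher and SSR2 lower.

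Further genes of the same pathways gave a background for the members. Of 107 such genes in 5 lists, 88 were listed, and 5 rose in RNA and 0 fell, against 5.03% higher and 3.01% lower among all genes tested. In footprints and in the ratio 0 were called, as among all genes (0%). Among sensors and effectors of the unfolded protein response 3 of 10 listed genes rose: XBP1, HERPUD1 and the stress transcription factor ATF4 (0.36), with a list median of 0.14. Among further translocon and membrane insertion genes 1 of 22 rose, CAMLG (0.31), a receptor for tail-anchored proteins, and among further degradation genes 1 of 18, the ubiquitin ligase RNF5 (0.24). None of 23 further glycosylation genes or of 15 further isomerases was called, with medians of -0.01 and 0.01. XBP1 and ATF4 were called under all 17 alternatives, HERPUD1 was lost without DMSO replicate 2 or AZD0095 replicate 2 (limma adjusted p up to 0.064), and CAMLG and RNF5 were lost without each single RNA library except AZD0095 replicate 1 (up to 0.12 and 0.14), RNF5 also without a variance trend.

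The members were abundant, and they differed widely in footprints per RNA. In DMSO cells their median RNA was 94.2 FPKM, against 23.3 FPKM for all listed genes, and 45 of 53 lay above the median of all genes. CALR had the highest RNA of the members, at 1026 ± 61.7 FPKM with AZD0095 and 1007 ± 50.4 FPKM with DMSO (SD, n = 3 each). SDF2L1 had the lowest, at 4.37 ± 0.58 FPKM with AZD0095 and 3.82 ± 0.72 FPKM with DMSO.

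The ratio of mean footprint to mean RNA FPKM had a median of 2.60 over the members with AZD0095 and 2.55 with DMSO, against 2.45 with AZD0095 and 2.43 with DMSO over all listed genes. Translocon genes had a median ratio of 4.03 with AZD0095 and 3.96 with DMSO, and 8 of 11 lay above the median of all genes in DMSO. SRP and receptor genes had 2.15 with AZD0095 and 1.73 with DMSO, with 3 of 8 above. SSR4 was highest, at 11.4 with AZD0095 and 15.4 with DMSO. TMEM147 was next to it in DMSO, at 6.53 with AZD0095 and 14.7 with DMSO. The SSR4 gene overlaps the listed gene IDH3G, and RefSeq lists 1 pseudogene of SSR4. The part of either in the SSR4 ratio was not tested. The ratios of TMEM147 in the libraries were 7.00, 6.91 and 5.68 with AZD0095, dividing libraries of the same number, against 15.9, 15.8 and 12.5 with DMSO.

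SRP54 stood near the bottom in DMSO cells. Its ratio was 2.60 with AZD0095, at percentile 53.6 of all listed genes, and 0.595 with DMSO, at percentile 3.69. In DMSO cells only PDIA3, an isomerase of glycoproteins, was lower among the members, at 0.367 with AZD0095 and 0.285 with DMSO. PDIA3 footprints were at 164, 122 and 146 FPKM with AZD0095, against 126, 140.3 and 67.3 FPKM with DMSO, below 391 FPKM of mean RNA in both groups. RefSeq lists 2 pseudogenes of PDIA3, and pseudogenes under the symbol of 12 members in all. How shared reads were split is not given in the sources used here, and the part of this in the PDIA3 ratio was not tested.

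**Figure D4:**
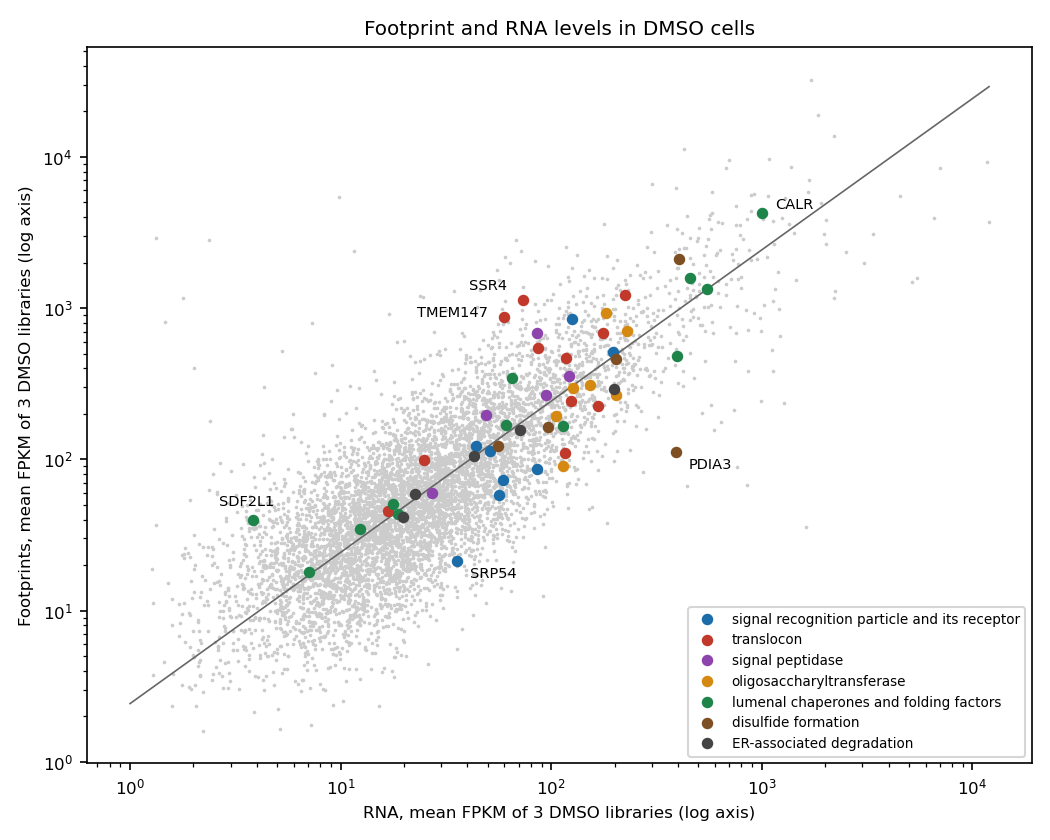
Mean footprint FPKM against mean RNA FPKM in the 3 DMSO libraries of each assay, on log axes, for all listed genes (grey) and the members (coloured by role); the line marks the median ratio of all listed genes, 2.43. SSR4 and TMEM147 lie far above the line, and PDIA3 and SRP54 far below it.

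The spread of footprint values between libraries was lower in bins of greater depth, in medians. Below 20 implied reads per kilobase, averaged over the 6 libraries, 13 members had a median SD between libraries of 0.44 on the log2 scale. The 24 members with 20 to 100 had 0.35, and the 16 members with 100 or more had 0.20. All listed genes had 0.65, 0.40 and 0.24 in the same bins. SRP54, at 14.7 reads per kilobase, was in the lowest bin, and TMEM147 (121) and P4HB (337) were in the highest. SEC61G and OST4, whose products are very short, spread most of all members, with SDs of 1.28 and 1.21 in the middle bin.

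**Figure D5:**
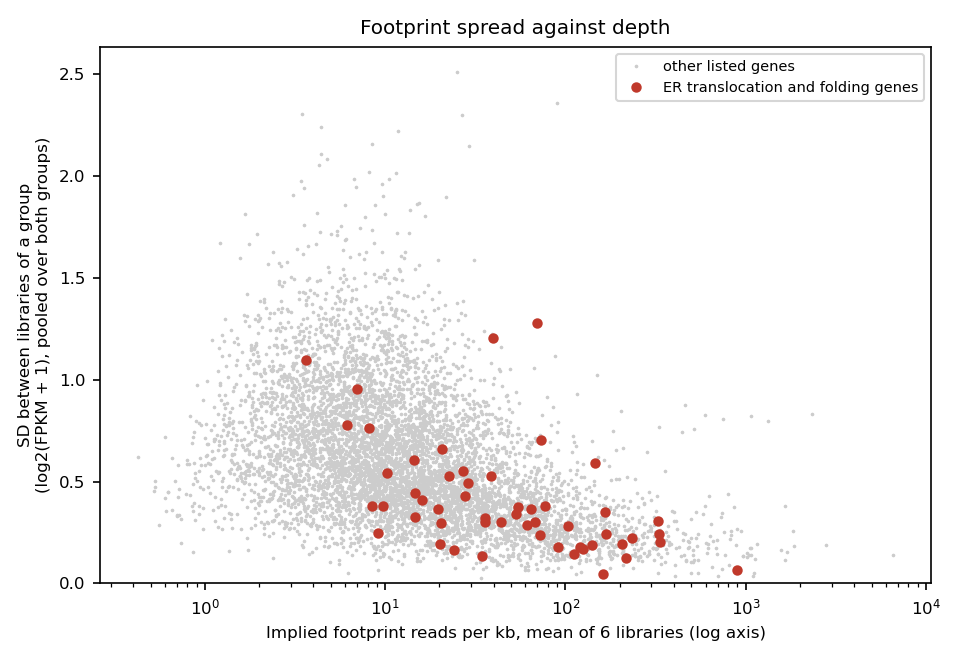
Standard deviation of footprints between libraries of a group, on the log2(FPKM + 1) scale and pooled over AZD0095 and DMSO, against implied reads per kilobase (log axis), for the members (red) and the other listed genes (grey). The median spread of the members is 0.44 in the shallowest bin and 0.20 in the deepest, with single members such as SPCS1 and VCP well above those medians.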

How the data were processed

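The members and gene lists were chosen with earlier results of these data known. The authors deposited FPKM values for each library, and fastp, Bowtie2, STAR and build hg38 are named in the submitters' processing notes. The roles of these tools, the counter and how FPKM was computed stand as not given in the sources used here. Per the labels' protocols, footprints were cut with RNase I from lysates without nuclei and mitochondria, and rRNA was removed with probes and RNase H. Each table held the same 6785 genes, none below 1.002 FPKM, and 8 repeated entries were removed. Fold changes are on the log2(FPKM + 1) scale, with a pseudocount of 1, which understates low genes. A filter at a mean of 1 FPKM removed 0 genes.

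Limma 3.58.1 (R 4.3.3) compared AZD0095 with DMSO within RNA, within footprints and, as the interaction of assay and treatment over 12 libraries, in the footprint-to-RNA ratio, with a variance trend, two-sided and adjusted by Benjamini-Hochberg. FPKM steps gave footprint depth: 1115 genes, 16.5%, gave whole reads (tolerance 0.002 reads plus rounding) and a length that, plus 1, divides by 3. RNA libraries showed no such steps. Both fits and depth recovery were run on simulated data, and the shares recovered there are not given here. Named members are SRP54 and TMEM147, any called member, the smallest p of each role in RNA and footprints, and the extremes of RNA and ratio; others are given by value or range. RefSeq tables of GRCh38.p14 gave positions and promoters. Alternatives covered pseudocount, filter, centring, trend, replicate number, replicate 1, library weights and leaving out each library.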

Additional observations from a re-analysis of the deposited data

How the results depend on the processing

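In footprints and in the footprint-to-RNA ratio 0 of 53 members were called under every alternative run. In RNA the count was 0 under the other pseudocounts, filters, centring, quantile normalization and fit without a variance trend. It was 5 with the replicate block (SRPRB, SEC62, TMEM147, DAD1 and DERL1; 23.9% of all genes), 5 with replicate 1 as a batch, 5 with replicates 2 and 3 alone and 13 with library weights, where 45.5% of all genes were called (the estimate of weights for the ratio stopped before it converged). Leaving out 1 library gave 0 to 4 called members, 4 of them without AZD0095 replicate 1. Whether the replicate numbers pair the libraries is not settled by their deviations from the group means. Correlations of same-numbered deviations were 0.622, 0.086 and 0.489 in RNA, where those of unlike numbers ran from -0.57 to 0.303. In footprints the same-numbered values were 0.009, -0.022 and 0.091.

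Values under each alternative were computed for the members named by rule. Among these the following values turned sign, and none was called in either direction where it did. SRP54 RNA was at -0.065 with replicates 2 and 3 alone and -0.067 with library weights, and from -0.167 to 0.115 with 1 library left out. PDIA3 RNA was at -0.020 with replicates 2 and 3 alone and -0.014 with library weights, and from -0.040 to 0.029 with 1 library left out. CALR was at -0.040 in RNA and 0.047 in footprints with quantile normalization, and with 1 library left out from -0.011 to 0.076 in RNA and from -0.072 to 0.020 in footprints. SDF2L1 footprints ran from -0.599 to 0.560 with 1 library left out. SPCS2 RNA was at -0.028 with library weights, and SEL1L footprints were at 0.354 with replicates 2 and 3 alone.

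The median RNA of the members lay 2.01 log2 units above that of all listed genes, and their footprint-to-RNA ratio 0.12 log2 units above, both from mean log2 FPKM of the DMSO libraries. Leaving out 1 library moved the ratio gap to between 0.047 (without footprint replicate 1) and 0.232 (without footprint replicate 3), within the SD between libraries. Genes under 1 FPKM in any library are not in the list, so silent genes were not tested.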
